A study of Mus musculus with 15 samples.

Results

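Cxcl12, Cxcr4 and Ackr3 form 1 signalling unit of a chemokine and its receptors, and their messenger RNA was followed in 15 mouse RNA-seq libraries of the cerebellum, 3 in each of 5 groups. The 3 genes were taken by name from the 21889 genes of the deposited gene counts, and all 3 passed the filter on low counts that 15259 genes passed. The design text names as the aim a search for genes that increase while granule neuron precursors, the proliferating source of cerebellar granule neurons, differentiate. Per the labels, the precursors came from E15.5 embryos with the genotype Math1-GFP and from wild-type mice at P1, P7 and P14, and the medulloblastoma cells (MB) from Ptch1 heterozygous mice, whose age is not given. All cells were purified on Percoll, a density step that sorts no marker. Genotype and age change together between E15.5 and P1, and tumour, genotype and age between the precursors and MB, so these cannot be told apart. The labels do not say whether replicates are separate animals, so p-values measure only the spread between these libraries.

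Cxcl12 encodes a secreted chemokine that draws cells towards its source and holds them there. Cxcr4 encodes its signalling receptor, which couples to Gi proteins. Ackr3, also known as Cxcr7, encodes an atypical receptor that binds the same chemokine, engages arrestins rather than Gi proteins and removes the ligand from the surroundings. In the developing cerebellum the ligand is known from the meninges, and Cxcr4 from the precursors of the external granule layer beneath them, where the chemokine keeps precursors at the surface and adds to the mitogenic effect of Sonic hedgehog. Ptch1 encodes the receptor that restrains Sonic hedgehog signalling.

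Cxcl12 (ENSMUSG00000061353) lies on the plus strand of chromosome 6 at 117118592 to 117131385 in mm9. Its 2 transcripts cover 5630 exon bases. Cxcr4 (ENSMUSG00000045382) lies on the minus strand of chromosome 1 at 130484776 to 130488867, with 1 transcript of 1805 exon bases. Ackr3 (ENSMUSG00000044337) lies on the plus strand of chromosome 1 at 92100555 to 92113326, with 2 transcripts over 3348 exon bases.

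The 250 bases before the annotated start of each gene are shown because they set out how unlike the 3 promoters are. They are from RefSeq on the GRCm38.p6 build, a later build than that of the counts, and all 3 members matched. Capitals mark matches on either strand to TATAAA (the core of a TATA box), GGGCGG (a GC box) or GCGCATGCG (the core bound by NRF1), and matches that touch or overlap run together. The windows are chr6:117168285-117168534 on the plus strand for Cxcl12, chr1:128592300-128592549 on the minus strand for Cxcr4 and chr1:90203730-90203979 on the plus strand for Ackr3.
Cxcl12: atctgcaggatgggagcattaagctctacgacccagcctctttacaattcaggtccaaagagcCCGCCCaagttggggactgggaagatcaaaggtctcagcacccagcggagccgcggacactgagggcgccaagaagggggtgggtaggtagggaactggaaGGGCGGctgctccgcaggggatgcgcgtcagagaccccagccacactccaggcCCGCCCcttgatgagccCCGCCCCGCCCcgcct
Cxcr4: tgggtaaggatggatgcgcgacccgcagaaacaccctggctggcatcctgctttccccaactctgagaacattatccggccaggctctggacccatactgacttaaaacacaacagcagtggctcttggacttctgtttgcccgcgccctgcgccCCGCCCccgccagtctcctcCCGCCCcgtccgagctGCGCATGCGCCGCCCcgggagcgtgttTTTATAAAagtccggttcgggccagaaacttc
Ackr3: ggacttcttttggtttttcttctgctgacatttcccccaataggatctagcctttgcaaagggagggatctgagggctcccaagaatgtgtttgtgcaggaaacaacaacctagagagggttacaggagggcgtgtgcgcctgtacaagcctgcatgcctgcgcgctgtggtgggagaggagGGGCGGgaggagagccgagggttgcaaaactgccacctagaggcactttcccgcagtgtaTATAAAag

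The Cxcl12 window held 5 GC boxes and no TATAAA. The Cxcr4 window held 3 GC boxes. It also held 2 overlapping matches to TATAAA on opposite strands, which begin 32 and 30 bases before the start, and 2 overlapping matches to GCGCATGCG on opposite strands. The Ackr3 window held 1 GC box and 1 TATAAA, which begins 8 bases before the start. Of 32851 windows of the same length, 12.4% held TATAAA, 32.7% held GGGCGG and 1.45% held GCGCATGCG. None of the 3 windows held CAGCTG or CATCTG, which are E-boxes (13% and 14.4% of windows), or ACCACCC, a core bound by Gli factors (3.92%). G and C made up 64.4% of the Cxcl12 window, 61.2% of the Cxcr4 window and 54.0% of the Ackr3 window, against a median of 52.4%. The windows held 14, 19 and 7 CpG sites in that order, against a median of 6. These are matches of letters, and the data hold no measure of binding there.

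Between 12597472 and 43443132 reads were counted in genes per library. Markers of the granule lineage were detected in all libraries, with none of the 8 at 0 and a summed level of 2809 to 6331 CPM (reads scaled to a common library size, per 1000000). Atoh1, which marks the dividing precursors, was at 280 ± 43.0 CPM in MB and at 11.9 ± 1.11 at P14 (SD, n = 3). The P14 libraries are called precursors here by label only. Their 8 markers of granule neuron maturation summed to 3498 to 4749 CPM, which overlapped with 2484 to 4154 at P7. The sums were 1437 to 3003 at E15.5, 1623 to 3300 at P1 and 887 to 1935 in MB. Markers of other cell types were present too, none of the 10 endothelial, 6 pericyte or 10 fibroblast markers being at 0 in any P1, P7, P14 or MB library. The library labelled P1 replicate 3 stood apart from the other P1 libraries by its oligodendrocyte markers (3819 CPM summed over 9 genes, against 587 and 968) and its low Cxcr4, so each comparison of a member with P1 is also given without it. P1 replicate 2 had the highest choroid plexus marker sum of all libraries (10480 CPM over 6 genes, against 406 in P1 replicate 1 and 3977 in the library labelled P1 replicate 3). In 6 libraries (E15.5 replicates 1 and 3, all of P7 and MB replicate 1) the gene Tsnax was lost from the gene counts but not from the transcript counts, which marks a difference in counting. For the 3 members, the transcript with the most counts held 99.0% to 103.6% of the gene count in every library. All P7 libraries fall in this set and no P1 or P14 library does, so counting set and age cannot be told apart there.

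Cxcl12, the ligand, rose steeply between E15.5 and P1 and was lowest in MB. At E15.5 the 3 libraries held 9.94, 11.9 and 10.2 CPM. At P1 they held 66.3, 72.2 and 84.1 CPM, and at P7 56.8, 50.6 and 45.1 CPM. At P14 they held 93.6, 104 and 94.8 CPM, and in MB 7.81, 7.52 and 8.93 CPM. All libraries of P1, P7 and P14 thus lay above all of E15.5 and MB, and no group overlapped another. The group means were 10.7 ± 1.10, 74.2 ± 9.04, 50.8 ± 5.89 and 97.6 ± 5.94 CPM at E15.5, P1, P7 and P14, and 8.09 ± 0.740 in MB (SD, n = 3).

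The rise of Cxcl12 from E15.5 to P1 was 6.97-fold (log2 2.80, SE 0.17, FDR 8.69e-08 by edgeR's quasi-likelihood test, adjusted by Benjamini-Hochberg over all genes tested). Genes with an FDR under 0.05 count as called here, and 46.3% of all genes were called in that comparison. Without the library labelled P1 replicate 3 the log2 change was 2.70. The gene was also higher at P7 and at P14 than at E15.5, by 2.25 (FDR 2.76e-07) and 3.20 (FDR 3.02e-08) on the log2 scale, in comparisons that called 37.8% and 50.9% of genes. P7 was lower than P1 by 1.46-fold, which was not called (log2 -0.55, SE 0.16, FDR 0.0679, with 3.15% of genes called), and was -0.44 (FDR 0.142) without the library labelled P1 replicate 3. It was called with DESeq2 (FDR 0.0113), with upper-quartile or total-count scaling, in the fit without MB replicate 1 (log2 -0.55, FDR 0.0352) and with 1 adjustment over all contrasts, so the call depends on the setting. P14 was higher than P7 by 1.92-fold (log2 0.94, SE 0.16, FDR 0.00779), where 10.3% of genes were called. With a term for the counting set this was 0.78 (FDR 0.0788). P14 and P1 were not separated by the test (log2 0.40, SE 0.16, FDR 0.117, with 8.94% of genes called), although all 3 P14 libraries lay above all 3 P1 libraries. Without the library labelled P1 replicate 3 the difference was 0.50 (FDR 0.0630). Inside the 1 counting set that holds both ages it was called (log2 0.38, FDR 0.0407), as it was when P1 and P14 were fitted without the other groups (log2 0.39, FDR 0.0453).

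In MB Cxcl12 was 6.29-fold lower than at P7 (log2 -2.65, SE 0.17, FDR 3.57e-08). It was 12.1-fold lower than at P14 (log2 -3.59, FDR 2.63e-09) and 9.18-fold lower than at P1 (log2 -3.20, FDR 9.11e-09, or -3.10 without the library labelled P1 replicate 3). These comparisons called 34.5%, 50% and 38.7% of genes. Against E15.5, the nearest group, MB was 1.32-fold lower, which was not called (log2 -0.40, SE 0.16, FDR 0.0517, with 50.1% of genes called). That difference sits at the threshold: it was called in 7 of 26 alternative fits. The start site table gave the largest difference (log2 -0.61, FDR 0.00382). It was also called with upper-quartile scaling (-0.44, FDR 0.0340), with a term for the counting set (-0.45, FDR 0.0376) and inside 1 counting set (-0.53, FDR 0.0493). Leaving out the library labelled P1 replicate 3 (-0.40, FDR 0.0486), P7 replicate 3 (-0.40, FDR 0.0488) or MB replicate 3 (-0.47, FDR 0.0455) did the same. In order of level, Cxcl12 ran from P14 through P1 and P7 to E15.5 and MB, and of the neighbours in this order P7 and E15.5 were the pair that the test separated.

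**Figure D1:**
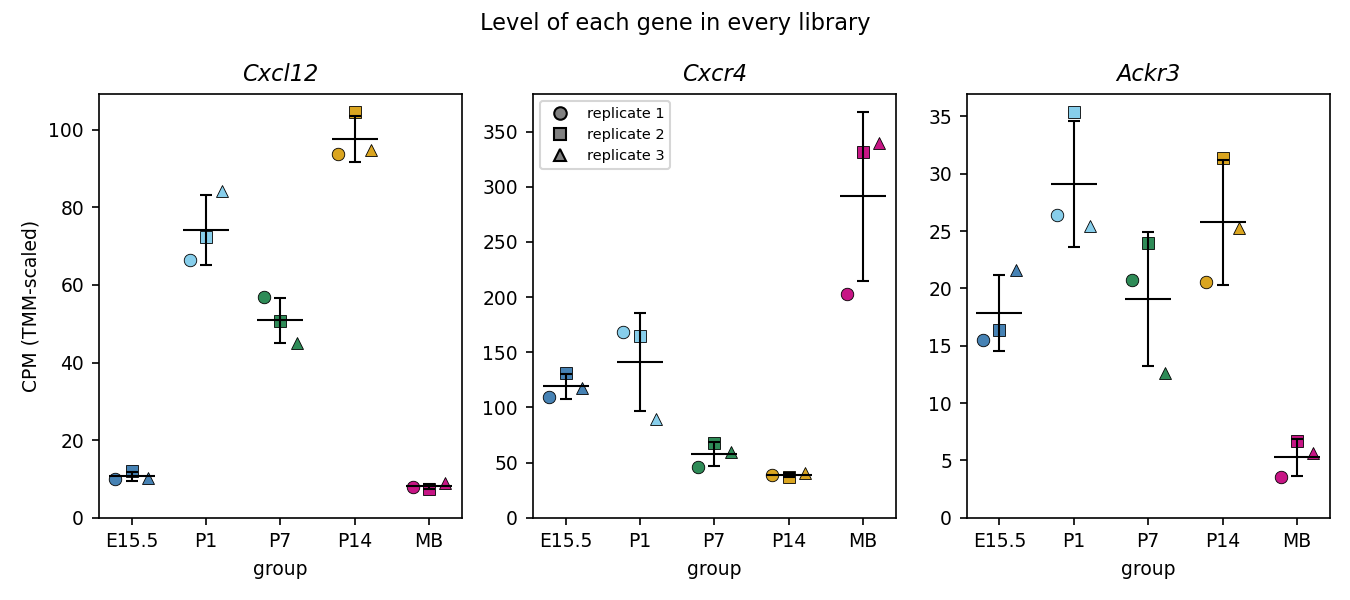
Level of Cxcl12, Cxcr4 and Ackr3 (CPM, linear axis from 0) in each of the 15 libraries by group. Symbols are replicates 1 to 3, and the horizontal line and bar are the mean and SD of 3 libraries. Cxcl12 is low at E15.5 and in MB, Cxcr4 is highest in MB, and Ackr3 is lowest in MB.

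Cxcr4, the signalling receptor, followed another course: it was high at E15.5 and P1, fell by P14 and was highest in MB. It was at 109, 131 and 117 CPM at E15.5 and at 169, 164 and 89.6 CPM at P1. It was at 46.4, 68.0 and 59.6 CPM at P7 and at 38.4, 37.1 and 40.5 CPM at P14. The MB libraries held 203, 332 and 339 CPM. Every MB library lay above every precursor library. The 89.6 CPM of the library labelled P1 replicate 3 lay below all E15.5 libraries, so E15.5 and P1 overlapped, while P7 and P14 lay below both without overlap. The means were 119 ± 11.1, 141 ± 44.5, 58.0 ± 10.9 and 38.7 ± 1.73 CPM at E15.5, P1, P7 and P14, and 291 ± 76.7 in MB (SD, n = 3).

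Cxcr4 did not differ detectably between P1 and E15.5 (log2 0.24, 95% interval -0.28 to 0.76, FDR 0.437). Without the library labelled P1 replicate 3 the difference was 0.48 (FDR 0.0970), and with a term for the counting set it was -0.07 (FDR 0.855). From P1 to P14 Cxcr4 fell 3.64-fold (log2 -1.86, SE 0.25, FDR 9.48e-04), where 5.31% of all genes were called lower and 3.63% higher. That fall was called in all 25 alternative fits, and without the library labelled P1 replicate 3 it was -2.11. P14 was also lower than E15.5 (log2 -1.62, FDR 8.60e-05), as was P7 (log2 -1.04, FDR 0.00400). Of the steps between, P7 against P1 was called (log2 -1.28, SE 0.25, FDR 0.0186) and P14 against P7 was not (log2 -0.58, SE 0.24, FDR 0.132). The call of P7 against P1 was lost without P1 replicate 2 (-1.15, FDR 0.113) and without P7 replicate 1 (-1.14, FDR 0.0785), 2 (-1.41, FDR 0.0567) or 3 (-1.30, FDR 0.0512). It was also lost in a fit of the 2 groups alone (-1.29, FDR 0.0574) and with a term for the counting set (-0.81, FDR 0.184). It was kept at -1.52 without the library labelled P1 replicate 3. P14 against P7 was called in the fit of those 2 groups alone (-0.58, FDR 0.0279).

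In MB Cxcr4 was 5.02-fold higher than at P7 (log2 2.33, SE 0.25, FDR 5.51e-06), where 13.7% of all genes were called higher and 20.7% lower. It was 7.53-fold higher than at P14 (log2 2.91, FDR 5.54e-07), 2.44-fold higher than at E15.5 (log2 1.29, FDR 4.78e-04) and 2.07-fold higher than at P1 (log2 1.05, FDR 0.00322). Without the library labelled P1 replicate 3 the difference from P1 was 0.81 (FDR 0.0144). In order of level Cxcr4 ran from MB through P1, E15.5 and P7 to P14. Of these neighbours MB and P1 were separated by the test, as were E15.5 and P7.

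Ackr3, the atypical receptor, showed no called change among the precursor ages in the fit of all libraries and was low in MB. It was at 15.48, 16.4 and 21.6 CPM at E15.5 and at 26.4, 35.4 and 25.4 CPM at P1. It was at 20.7, 23.9 and 12.6 CPM at P7 and at 20.6, 31.4 and 25.2 CPM at P14. MB held 3.53, 6.67 and 5.64 CPM, below every precursor library. The P1 libraries lay above those of E15.5 and of P7, and all other pairs of ages overlapped. The means were 17.8 ± 3.31, 29.1 ± 5.50, 19.1 ± 5.81 and 25.7 ± 5.42 CPM at E15.5, P1, P7 and P14, and 5.28 ± 1.60 in MB (SD, n = 3).

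In the test of any difference among the 4 ages, which called 55.7% of all genes, Cxcl12 (FDR 9.14e-08) and Cxcr4 (FDR 6.51e-05) were called and Ackr3 was not (FDR 0.108). The largest difference of Ackr3 between ages was P1 against E15.5 (log2 0.70, 95% interval 0.10 to 1.31, FDR 0.0542). It was called with upper-quartile (0.85) or total-count (0.94) scaling, with DESeq2 (0.70), in a fit of the 2 groups alone (0.73), and in the fits without P7 replicate 3 (0.70) and without MB replicate 1 (0.70). Without the library labelled P1 replicate 3 it was 0.79 (FDR 0.0618). P14 against P1 gave -0.18 (95% interval -0.78 to 0.43, FDR 0.733), P7 against P1 -0.61 (FDR 0.247) and P14 against P7 0.43 (FDR 0.340). Without that library the first was -0.26 (FDR 0.629) and P7 against P1 was -0.69 (FDR 0.224). P7 against E15.5 gave 0.10 (FDR 0.807), which became -0.10 without P7 replicate 2. P14 against E15.5 gave 0.53 (FDR 0.133) and was called when those 2 groups were fitted alone (0.57, FDR 0.0434). In MB Ackr3 was 3.60-fold lower than at P7 (log2 -1.85, SE 0.29, FDR 1.75e-04), 4.86-fold lower than at P14 (FDR 1.86e-05), 5.49-fold lower than at P1 (log2 -2.46, FDR 1.26e-05, or -2.54 without the library labelled P1 replicate 3) and 3.37-fold lower than at E15.5 (FDR 1.60e-04). In its order of level, P1, P14, P7, E15.5 and MB, the test separated E15.5 and MB and no other neighbours.

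**Figure D2:**
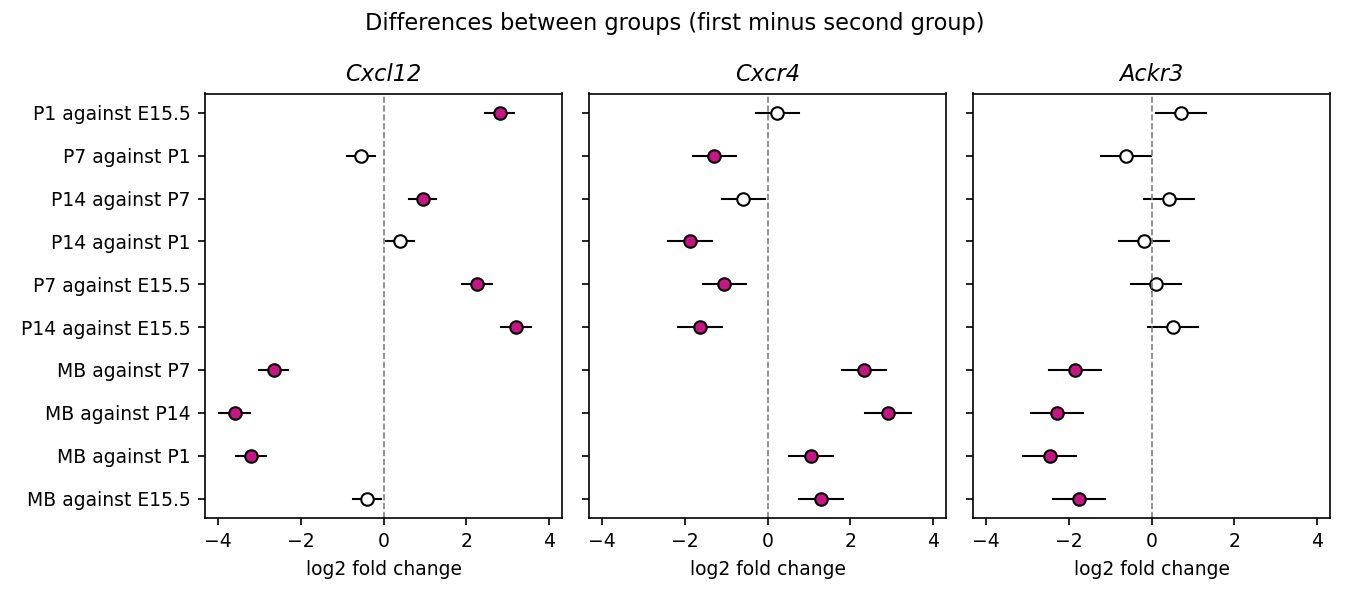
Differences of Cxcl12, Cxcr4 and Ackr3 between groups (log2 fold change of the first group over the second) for the 10 pairs of groups. Lines are 95% intervals, filled points have an FDR under 0.05 and open points do not. Of the 4 MB comparisons, Cxcr4 is higher in all 4 and Ackr3 lower in all 4, while Cxcl12 is called lower in 3.

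The 3 genes thus moved apart in MB: the signalling receptor was higher than in every precursor age, the atypical receptor was lower than in every age, and the ligand was lower than at every postnatal age. The calls of all 3 genes in MB against P1, P7 and P14 were kept in every alternative fit. The comparisons of 1 group with several others share libraries and are not independent of each other.

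Levels of different genes were set side by side per kb of exon. The length was fixed for each gene and covers all its transcripts. For Cxcl12 the share of reads found on the long transcript only differed between groups (mean 10.8% at E15.5, 31.3% at P14). Its levels per kb and the ratios to it therefore depend on the length chosen, and not equally in all groups. Per kb, Cxcr4 was at 66.0, 78.0, 32.1 and 21.4 CPM at E15.5, P1, P7 and P14 and at 161 in MB. Cxcl12 was at 1.90, 13.2, 9.03 and 17.3, and at 1.44 in MB. Ackr3 was at 5.32, 8.68, 5.70 and 7.69, and at 1.58 in MB. By level per kb, Cxcr4 stood at the 97.4 to 98.9 percentile of genes in the MB libraries and at 77.1 to 78.7 at P14.

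Within each library the ratio of Cxcr4 to Ackr3 per kb was highest in MB. Its log2 was 6.74, 6.53 and 6.80 in the MB libraries, which is 103-fold at the mean. It was 3.71, 3.89 and 3.33 at E15.5 and 3.57, 3.11 and 2.71 at P1. It was 2.06, 2.40 and 3.13 at P7 and 1.79, 1.13 and 1.58 at P14, which is 2.83-fold at the mean. P14 lay below all other groups and MB above all, without overlap, while E15.5 overlapped with P1, and P1 with P7.

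The ratio of receptor to ligand, Cxcr4 to Cxcl12 per kb, had a lower mean at each later age. Its log2 was 5.10, 5.10 and 5.17 at E15.5 (34.8-fold at the mean) and 2.99, 2.83 and 1.73 at P1 (5.72-fold). It was 1.35, 2.07 and 2.04 at P7 (3.53-fold) and 0.36, 0.15 and 0.42 at P14 (1.24-fold). In MB it was 6.34, 7.10 and 6.89 (110-fold). P1 and P7 overlapped through the library labelled P1 replicate 3, and the other groups did not overlap. The log2 ratio of Ackr3 to Cxcl12 per kb was 1.48 ± 0.33 at E15.5, then -0.61 ± 0.35, -0.71 ± 0.38 and -1.19 ± 0.23 at P1, P7 and P14, and 0.09 ± 0.49 in MB (SD, n = 3). The atypical receptor thus exceeded the ligand per kb in every E15.5 library and was below it in every postnatal one.

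**Figure D3:**
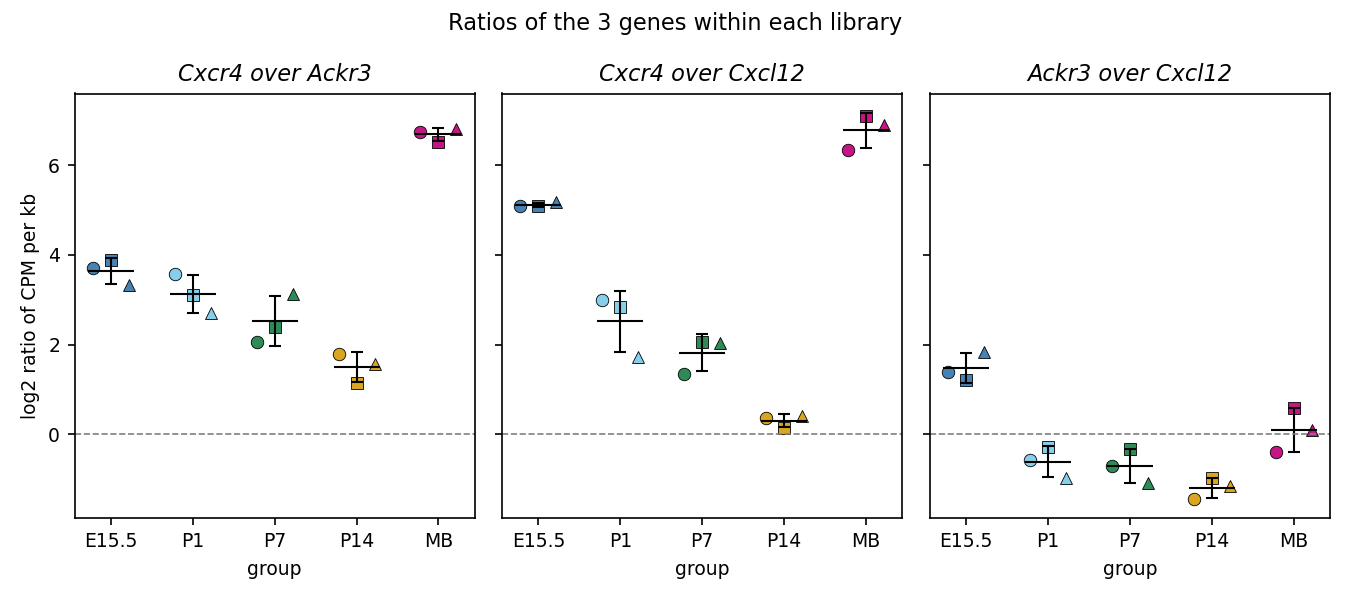
Log2 ratios of CPM per kb within each library, for Cxcr4 over Ackr3, Cxcr4 over Cxcl12 and Ackr3 over Cxcl12. Symbols are replicates 1 to 3, with circle, square and triangle in that order, lines and bars are the mean and SD of 3 libraries, and the dashed line marks equal levels. Both ratios with Cxcr4 on top are highest in MB and lowest at P14.

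Marker genes of vessels moved with Cxcl12. The summed level of the 10 endothelial markers was 14.4 to 40.4 CPM at E15.5, 458 to 698 at P1, 349 to 406 at P7, 876 to 915 at P14 and 24.2 to 41.1 in MB. All 10 were called higher at P1 than at E15.5, where 46.3% of all genes were called, and all 10 lower in MB than at P7, where 20.7% of all genes were called lower. Cldn5, a tight junction protein of endothelium, was at 3.89 ± 4.57, 127 ± 18.6, 73.7 ± 10.9 and 237 ± 29.5 CPM over the ages and at 8.52 ± 5.17 in MB (SD, n = 3). The groups stood in nearly the order that they have for Cxcl12, with E15.5 and MB at the low end in both. In bulk libraries fewer cells of a type and less RNA per cell cannot be told apart.

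The 6 pericyte markers summed to 15.9 to 42.1 CPM at E15.5, 294 to 631 at P1, 251 to 437 at P7, 813 to 928 at P14 and 25.3 to 49.0 in MB. Of these, 6 were called higher at P1 than at E15.5 (46.3% of all genes called) and 4 lower in MB than at P7 (20.7% of all genes called lower). Pdgfrb, the growth factor receptor of pericytes, was at 4.53 ± 2.01, 56.1 ± 16.3, 34.3 ± 9.98 and 76.4 ± 16.0 CPM over the ages and at 2.65 ± 1.25 in MB (SD, n = 3). The 10 fibroblast and meningeal markers summed to 27.7 to 34.0 CPM at E15.5, 459 to 932 at P1, 311 to 487 at P7, 352 to 435 at P14 and 76.4 to 151 in MB. All 10 were called higher at P1 than at E15.5, and 8 were lower and 1 higher in MB than at P7, beside the same shares of all genes. At P14 against P1, where 8.94% of all genes were called, 1 of 10 endothelial markers was called higher, none of the 6 pericyte markers was called, and 1 of 10 fibroblast and meningeal markers was called lower. The 8 astroglial markers summed to 389 to 507 CPM at E15.5 and to 2280 to 4986 in the postnatal libraries, with all 8 called higher at P1 than at E15.5. In MB they summed to 1658 to 1994 CPM, with 5 called higher and 1 lower than at E15.5 (50.1% of all genes called), while Cxcl12 had its lowest mean there. The part of any of these cell types in the level of Cxcl12 was not tested.

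Among the tested genes with a symbol and a mean of at least 5 CPM (11575 genes), those whose log2 CPM followed Cxcl12 most closely over the 15 libraries were Mylk (Pearson r 0.991), Cavin1 (0.989), Opcml (0.988), Arap3 (0.986) and Itga1 (0.985). Over the 12 precursor libraries alone they were Daam2, Gjb6, Mertk, Sept8 and Atp13a5, with r of 0.994 for each. These correlations describe likeness among libraries that fall into separate groups, and carry no test. The first 5 genes, picked for likeness over all groups, share the low level at E15.5 and in MB by that choice. Mylk, for example, averaged 1.95 CPM at E15.5, 25.9 at P14 and 1.34 in MB. The genes picked over the precursor libraries differed in MB: Sept8 averaged 164 CPM at P14 and 581 in MB, and Atp13a5 34.7 and 1.11.

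Markers of Sonic hedgehog signalling were high in MB, as was Cxcr4, but did not follow it over the ages. The 8 genes of this list summed to 567 to 756 CPM at E15.5, 1066 to 1682 at P1, 1297 to 1692 at P7, 817 to 988 at P14 and 3212 to 5004 in MB. Of these, 6 were called higher in MB than at P7 and none lower, where 13.7% of all genes were called higher. MB replicate 1 had both the lowest sum (3212 CPM) and the lowest Cxcr4 (203 CPM) of the tumour libraries. At E15.5 the sum lay below that of every P7 library while Cxcr4 lay above every P7 library. Gli1, a transcription factor and direct target of the pathway, was at 13.8 ± 3.13 CPM at E15.5, 130 ± 15.8 at P7 and 547 ± 301 in MB (SD, n = 3). The part of Sonic hedgehog signalling in the level of Cxcr4 was not tested.

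Cxcr4 is also carried by immune cells, and their markers were higher in MB. The 11 microglia and macrophage markers summed to 57.6 to 162 CPM at P7 and to 213 to 567 in MB, with 9 called higher and none lower, beside 13.7% of all genes called higher. At E15.5, where Cxcr4 was at 109 to 131 CPM, this sum was 9.86 to 32.7 CPM. The 7 lymphocyte and neutrophil markers summed to 29.2 CPM in MB replicate 1, to 3.69 and 3.72 CPM in MB replicates 2 and 3, and to at most 2.74 CPM in any precursor library. MB replicate 1 also had the highest microglia and macrophage sum of the tumour libraries (567 CPM, against 249 and 213) and the lowest Cxcr4 (203 CPM). Their part in the level of Cxcr4 in MB was not tested.

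**Figure D4:**
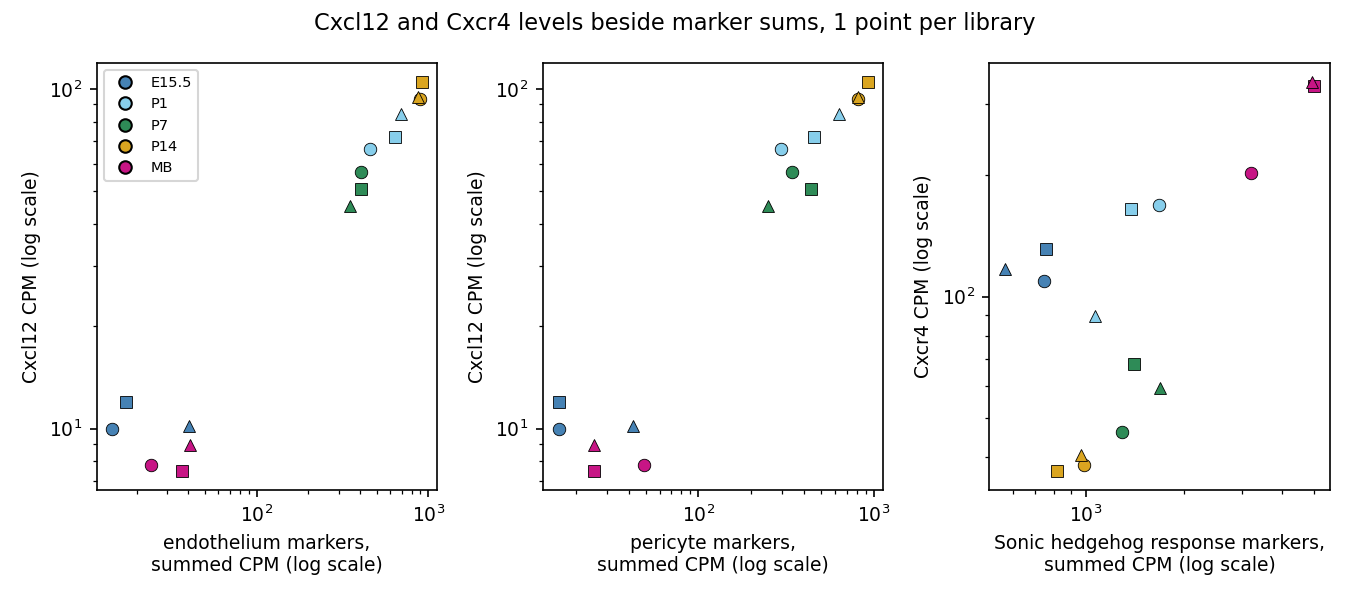
Level of Cxcl12 beside the summed endothelial and pericyte markers, and of Cxcr4 beside the summed Sonic hedgehog response markers (CPM, all axes logarithmic), 1 point per library. Colours are groups, and circle, square and triangle are replicates 1 to 3. E15.5 and MB lie together at low Cxcl12 and low vascular sums, whereas Cxcr4 at E15.5 is high at a low Sonic hedgehog sum.

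The genes nearest to Cxcr4 over the 15 libraries were Smoc1 (Pearson r 0.963), Atic (0.959), Syt13 (0.958), 2700046A07Rik (0.953) and Sinhcaf (0.950). Smoc1 averaged 48.3, 54.7, 18.7 and 9.51 CPM at E15.5, P1, P7 and P14 and 207 in MB. Over the 12 precursor libraries they were Lypd6 (0.971), Plag1 (0.961), Fastkd3 (0.955), Nras (0.954) and Chodl (0.950), with no gene in common between the lists. Plag1, for example, averaged 10.2 CPM at E15.5 and 2.76 at P14, but 0.419 in MB, where Cxcr4 was highest. For Ackr3 the nearest genes over 15 libraries were Nat8f4 (0.964), Klhl4 (0.947), Ccdc102a (0.944), Cthrc1 (0.942) and Slitrk2 (0.942). Over the 12 precursor libraries they were Lamp2 (0.937), Bet1 (0.935), Tvp23b (0.924), Slc35f5 (0.924) and Vamp3 (0.912).

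The 2 Cxcl12 transcripts of the deposited gene model share their 3′ end and differ in the last exon. The last exon of ENSMUST00000073043 begins 2497 bases earlier, at 117126104 to 117128600 on chromosome 6 in mm9, than that of ENSMUST00000112871. That stretch lies in the last intron of the short transcript. Reads counted there from unspliced RNA thus cannot be told apart from reads of the longer exon. The share of reads counted on the long transcript and not on the short one was 10.97%, 15.4% and 6.17% at E15.5. It was 15.2%, 17.7% and 30.3% at P1, and 17.3%, 12.5% and 17.0% at P7. It was 30.8%, 30.9% and 32.1% at P14 and 20.4%, 21.5% and 24.2% in MB. The P14 libraries lay above all others, with the library labelled P1 replicate 3 close below them.

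The precision of these shares differs, since the long transcript held 143 to 389 reads at E15.5, 201 to 312 in MB and 1182 to 3479 in the other libraries. The 95% Wilson interval was 10.4% to 22.2% in E15.5 replicate 2 and 29.4% to 32.5% in P14 replicate 2, and such intervals cover counting error only. The mean was 31.3% ± 0.701 at P14 and 15.6% ± 2.69 at P7 (SD, n = 3), a difference of 15.7 percentage points. An exact two-sided permutation test of P14 against each of the other 4 groups gave p = 0.1, the smallest that 3 against 3 libraries allow, and 0.1 after adjustment over the 4. In 4 other genes with a comparable pair of transcripts the median share at P7 and P14 was 32.9% and 31.1%, and 3 of the 4 were higher at P14, with a median difference of 0.842 percentage points. A looser rule, chosen after so few were found, gave 40 genes with medians of 11.5% and 12.5%, of which 21 were higher at P14 than at P7. At E15.5 the medians of the 4 and the 40 genes were 23.3% and 10.2%, the lowest of any group, as was the share of Cxcl12. Oligodendrocyte markers were high in the same libraries as the share, at 5874 to 6310 CPM at P14 and 3819 in the library labelled P1 replicate 3. All others held at most 1870 CPM. Pericyte markers were highest in the same libraries (813 to 928 and 631 CPM), as were endothelial markers (876 to 915 and 698 CPM). In MB the share lay above that at P7, while the oligodendrocyte sum was 653 to 957 CPM, against 947 to 1870 at P7. The pericyte sum was 25.3 to 49.0 CPM in MB, against 251 to 437 at P7. The endothelial sum was 24.2 to 41.1 CPM in MB, against 349 to 406 at P7. The part of these cell types in the share was not tested. Of the Ackr3 reads, 6.67% to 17.2% were counted on its second transcript, ENSMUST00000159654, which overlaps the first. Cxcr4 has 1 transcript in this model.

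**Figure D5:**
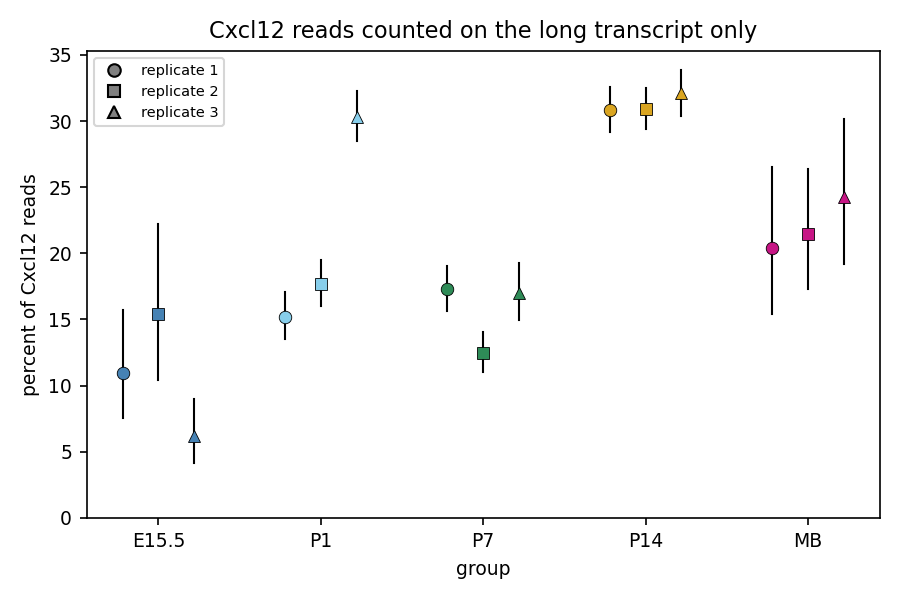
Percent of Cxcl12 reads counted on the long transcript and not on the short one, by library. Symbols are replicates 1 to 3 and lines are 95% Wilson intervals. The P14 libraries sit at 30.8% to 32.1%, and of the other libraries the one labelled P1 replicate 3 reaches 30.3%.

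Other chemokines and their receptors were mostly scarce. Of 21 other receptors, 14 passed the filter on low counts, and 20 of the 33 other ligands found did, so the counts that follow cover those alone. At P1 against E15.5, 8 receptors and 15 ligands were called higher and none lower, in the comparison that called 46.3% of all genes. Between 9 and 15 of the 21 receptors, and 14 to 20 of the 33 ligands, had no count in an E15.5 library, so genes that passed the filter through other groups had little room to be lower at P1, and the direction is no finding. In the same comparison 10 of 11 microglia and macrophage markers were called higher. At P14 against P1 none of either list was called, where 8.94% of all genes were called. In MB against P7, 5 receptors were called higher and 3 lower, and 4 ligands higher and 3 lower, where 34.5% of all genes were called.

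Ackr1, an atypical receptor for inflammatory chemokines, was the most abundant of these receptors, at 30.2 ± 14.04, 50.5 ± 34.1, 55.1 ± 15.4 and 118 ± 14.8 CPM over the ages and 24.7 ± 3.89 in MB (SD, n = 3). It was lower in MB than at P7 (log2 -1.16, SE 0.40, FDR 0.0328), in the same direction as Ackr3. Cx3cr1, the fractalkine receptor of microglia, was at 1.41 ± 0.806 CPM at E15.5 and 22.3 ± 12.2 in MB. Cxcl14 had the highest mean of the other ligands, at 34.6 ± 3.67 CPM at P14 and 20.1 ± 12.7 in MB. Ccl3, a macrophage chemokine, was lower in MB than at P7 (log2 -1.47, SE 0.55, FDR 0.0491).

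Of 9 genes that process the ligand or bind the same receptors, 2 were called lower and none higher at P14 against P1, where 5.31% of all genes were called lower. Mmp9, a matrix protease that cleaves Cxcl12, fell from 20.4 ± 9.17 to 1.95 ± 0.503 CPM (log2 -3.39, SE 0.66, FDR 0.00920). Hmgb1, which forms a complex with Cxcl12, fell from 71.6 ± 7.12 to 45.0 ± 5.42 CPM (log2 -0.67, SE 0.18, FDR 0.0329). In MB against P7, 2 were higher and 2 lower, which is 44.4% of the list beside 34.5% of all genes. Cd74, a receptor for the cytokine Mif and the invariant chain of antigen presentation, rose from 1.03 ± 0.571 to 39.8 ± 28.6 CPM (log2 5.25, SE 0.72, FDR 4.82e-05). Mmp2, another matrix protease, rose from 7.68 ± 2.06 to 26.5 ± 10.9 CPM (log2 1.79, SE 0.40, FDR 0.00247).

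Downstream of Cxcr4, 15 genes of Gi proteins and RGS proteins, which shut Gi signals off, were all tested. None was called at P14 against P1, where 8.94% of all genes were called. In MB against P7 1 was higher and 6 lower, beside 13.7% of all genes called higher and 20.7% lower. The median log2 change there was -0.60 against 0.02 over all genes. Gnai2, a Gi alpha subunit, was higher in MB (294 ± 18.2 at P7, 635 ± 229 CPM in MB, log2 1.11, FDR 0.00242). Gnai1, another Gi alpha subunit, was lower (54.1 ± 9.40 and 22.9 ± 1.09 CPM, log2 -1.24, FDR 2.91e-04). The regulators Rgs3 (10.9 ± 0.917 and 1.57 ± 0.493 CPM, log2 -2.79, FDR 5.98e-07) and Rgs4 (13.6 ± 3.14 and 3.00 ± 0.903 CPM, log2 -2.18, FDR 1.28e-05) were lower as well.

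Of 10 genes of arrestins, receptor kinases and trafficking, 1 was called at P14 against P1, where 8.94% of all genes were called. This was Grk2, a kinase that desensitises Cxcr4, which was higher at P14 (log2 0.93, SE 0.17, FDR 0.00730). In MB against P7, 2 were higher and 2 lower. The arrestin Arrb1 was lower (log2 -0.94, FDR 0.00211) and Arrb2 higher (log2 0.62, FDR 0.0320). The receptor kinase Grk5 was lower (log2 -0.80, FDR 0.00985) and Grk6 higher (log2 0.49, FDR 0.0198). In that comparison 13.7% of all genes were called higher and 20.7% lower. The median log2 change was 0.02 both in this list and over all genes.

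Of 16 effectors of migration, Pxn, the focal adhesion protein paxillin, was the 1 called at P14 against P1 and was higher (log2 0.72, SE 0.17, FDR 0.0231). That is 6.25% of the list, beside 8.94% of all genes. In MB against P7, 3 were higher and 1 lower. Elmo1, which activates Rac together with Dock proteins, fell from 205 ± 26.4 at P7 to 40.3 ± 7.91 CPM (log2 -2.35, SE 0.21, FDR 9.11e-07). Dock1 (log2 0.81, FDR 0.00371) and the kinase gene Akt1 (log2 1.02, FDR 0.00107) were higher in MB. The share of these genes called in MB against P7 was 46.7% for the Gi and RGS list, 40.0% for the arrestin list and 25.0% for the effectors, beside 34.5% of all genes.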

How the data were processed

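The authors deposited raw read counts per gene, per transcript and per transcription start site for 15 poly(A) RNA-seq libraries. Per the submitters' processing notes, Trimmomatic, TopHat, StringTie and HTSeq were used with the mm9 build. Versions and strand setting are not given in the sources used here, so reads of overlapping antisense genes cannot be told apart. Lines that name no gene were left out, and 39.5% to 55.4% of records were counted in genes. Gene symbols came from reference tables (20358 of 21889 matched).

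Low genes were removed by filterByExpr (at least 10 counts, total of at least 15), and the rest were scaled with TMM and fitted in edgeR 4.0.16 (R 4.3.3) with 1 mean per group over all 15 libraries. Contrasts used the quasi-likelihood F-test, with Benjamini-Hochberg adjustment (FDR) over 15259 genes. CPM are counts per 1000000 of the TMM-scaled library size. Exon length came from the deposited transcript positions. The scripts were tested on simulated counts. No 2 replicates agreed within sampling noise (lowest chi-square per degree of freedom 17.1).

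The members and lists were chosen with earlier results of these data known. Named were the members, from each list up to 3 called genes per direction with the largest change in P14 against P1 and MB against P7 (mean of at least 5 CPM), leading marker genes, any gene of the chemokine lists by its level, and the 5 nearest genes by correlation. Smoc1, Mylk, Sept8, Atp13a5 and Plag1 were chosen as examples after their values were seen. Alternatives were DESeq2 1.42.0, other scalings, tables and filters, a replicate block, terms for the counting set, and leaving out each library.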

Additional observations from a re-analysis of the deposited data

How the results depend on the processing

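The alternatives gave 818 values over 33 results (3 genes in 10 contrasts and the test of 4 ages). Of these values 784 kept the direction and the side of the threshold, and 34 did not. A single fit gave values for many results and the fits share libraries, so these values are not independent. Same-numbered replicates did not clearly deviate together (r from -0.31 to 0.33 over 30 pairs, 6 of them over 0.1). Pairs with different numbers ran from -0.484 to 0.465. No pairing by number was seen, though such a check cannot exclude it, and the fit with the replicate block changed no call. With the block, Cxcr4 gave -1.86 in P14 against P1 and 2.33 in MB against P7. For Ackr3 in P1 against E15.5, calls were gained with upper-quartile (0.85) and total-count scaling (0.94), DESeq2 (0.70) and a fit of the 2 groups (0.73), and leaving out 1 library gave 0.54 to 0.82. In the test of 4 ages, where the value is the largest difference between ages, Ackr3 was called with upper-quartile (0.85) and total-count scaling (0.94) and with DESeq2 (0.70). For Cxcl12 in P7 against P1, calls were gained with upper-quartile (-0.65) and total-count scaling (-0.67), DESeq2 (-0.56) and adjustment over all contrasts (-0.55), with -0.62 to -0.44 when 1 library was left out. In P14 against P1 Cxcl12 was called inside 1 counting set (0.38) and in a fit of the 2 groups (0.39). With a term for the counting set, Cxcl12 in P14 against P7 (0.78) and Cxcr4 in P7 against P1 (-0.81) lost their calls, and Cxcr4 in P1 against E15.5 changed sign (-0.074). From the transcript counts, which kept Tsnax, Cxcl12 in P14 against P7 gave 0.926 (FDR 0.0093) and Cxcr4 in P7 against P1 gave -1.282 (FDR 0.0186). In a fit of the 2 groups Cxcr4 lost its call in P7 against P1 (-1.29) and gained one in P14 against P7 (-0.58), and leaving out 1 library gave -1.52 to -1.13 for the former. Ackr3 in P7 against E15.5, not called, ran from -0.097 without P7 replicate 2 to 0.323 without P7 replicate 3. Ackr3 in P14 against E15.5 was called in a fit of the 2 groups (0.57), and Cxcl12 in MB against E15.5 in 7 of 26 fits, most clearly in the start site table (-0.61). The cause of these changes was not tested.

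Depth limits Ackr3 most in MB (89 to 273 counts per library) and Cxcl12 at E15.5 (143 to 387) and in MB (197 to 308). The start site table held Cxcl12 alone of the 3 genes, so that alternative gave no value for Cxcr4 and Ackr3. Inside 1 counting set no comparison with P7 was possible, and E15.5 was left with 1 library, assumed to vary like the other groups.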
